A study of Homo sapiens with 6 samples.

Results

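The BCL2 family genes that set the threshold for mitochondrial cell death were examined in NB4 cells with and without an sgRNA against ARID1A. The 10 genes were chosen by name. They comprise 4 anti-apoptotic members (BCL2, MCL1, BCL2L1 and BCL2A1) and 6 pro-apoptotic members, namely the effectors BAX and BAK1 and the BH3-only genes BCL2L11, PMAIP1, BBC3 and BID. They are 10 of the 52992 genes to which the transcript tables were summed. All 10 were among the 18514 genes that passed the low-count filter.

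NB4 is an established acute promyelocytic leukemia line. All cells carried a Cas9 vector with an mCherry marker and a second lentiviral vector from which doxycycline induces an sgRNA. The control group (LacZ) had an sgRNA against the lacZ gene of Escherichia coli, and the other groups had 1 of 2 sgRNAs against ARID1A (sg1 and sg5), whose protein binds DNA within SWI/SNF, a complex that remodels chromatin. Each of the 3 groups had 2 replicates, and every sample received 1 µg/ml doxycycline for 7 days, which the methods say was followed by culture without it before RNA was taken. Cells were sorted for marker fluorescence, and no source says that a group is a single clone or that its replicates were separate cultures, so p-values measure the spread between these samples, which may be technical.

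Proteins of this family act on one another at the mitochondrial outer membrane. Anti-apoptotic members hold BAX and BAK1 in check, whereas BH3-only proteins, which respond to stress, bind the anti-apoptotic members or activate the effectors directly. BAX and BAK1 then form pores through which cytochrome c leaves the mitochondrion, and caspases are activated in the cytosol. Leukemic myeloid cells often depend on BCL2 or MCL1 for survival, and drugs that mimic the BH3 domain target these proteins. The data here are mRNA levels, and protein was not measured.

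Total estimated counts lay between 46131178 and 54843745 per sample. The marker genes of the line behaved in a mixed way. MPO, the myeloperoxidase of primary granules, lay between 5991 and 7769 TPM (the deposited unit of transcript abundance, corrected for transcript length), and the 5 promyelocyte markers summed to between 6754 and 8950 TPM, with LacZ at 8064 and 8950, sg1 at 7999 and 7464, and sg5 at 6754 and 7322. Of these markers the 4 that passed the filter had negative log2 fold changes in sg1 and in sg5, 0 of them called and 2 at an unadjusted p under 0.05 in each by edgeR, and their part in the results below was not tested. ELANE, neutrophil elastase, which also defines this stage, was nearly absent at 0.04 to 0.29 TPM. Erythroid markers summed to at most 0.01 TPM, B cell markers to at most 1.22 TPM and fibroblast markers to at most 0.46 TPM, while the T cell markers CD3D and CD3E summed to 13.7 and 12.2 TPM for LacZ, 17.7 and 15.9 for sg1 and 14.8 and 19.1 for sg5, with all 4 ARID1A-deficient samples above LacZ. CD3D, the one of them that passed the filter, had a joined log2 fold change of 0.38 (FDR of 0.696 by edgeR), and its part in the results below was not tested. Replicate 1 of sg1 and replicate 2 of sg5 stood apart from the other 4 samples on the first principal component of all genes (scores of 34.30 and 46.75 against -30.30 to -11.33, 34.4% of the variance), and results that change without them are given below both ways. ARID1A mRNA itself changed by 0.22 (SE 0.14) in sg1 and by -0.36 (SE 0.14) in sg5 on the log2 scale, with FDRs of 0.993 and 0.661 by edgeR, so that mRNA does not check the labels.

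None of the 10 members passed the threshold in any comparison. The threshold was a false discovery rate (FDR) of 0.1 by the quasi-likelihood test of edgeR, adjusted over all 18514 genes. This count of 0 of 10 stands beside 0.0378% of all tested genes in sg1 against LacZ, 0.0972% in sg5 against LacZ, 0.167% in the joined comparison of ARID1A-deficient (sg1 and sg5) samples against LacZ, and 0.0054% in sg1 against sg5. At an unadjusted p under 0.05 there were 0, 1, 1 and 0 members, against 4.15%, 7.47%, 7.21% and 1.38% of all genes, and the same counts were obtained with DESeq2, which also called 0 members. The 1 member was BBC3, which was lower in all 4 ARID1A-deficient samples than in both LacZ samples. In bulk RNA a lower level in each cell and fewer cells with the transcript cannot be told apart. Values of single members follow by role.

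**Figure D1:**
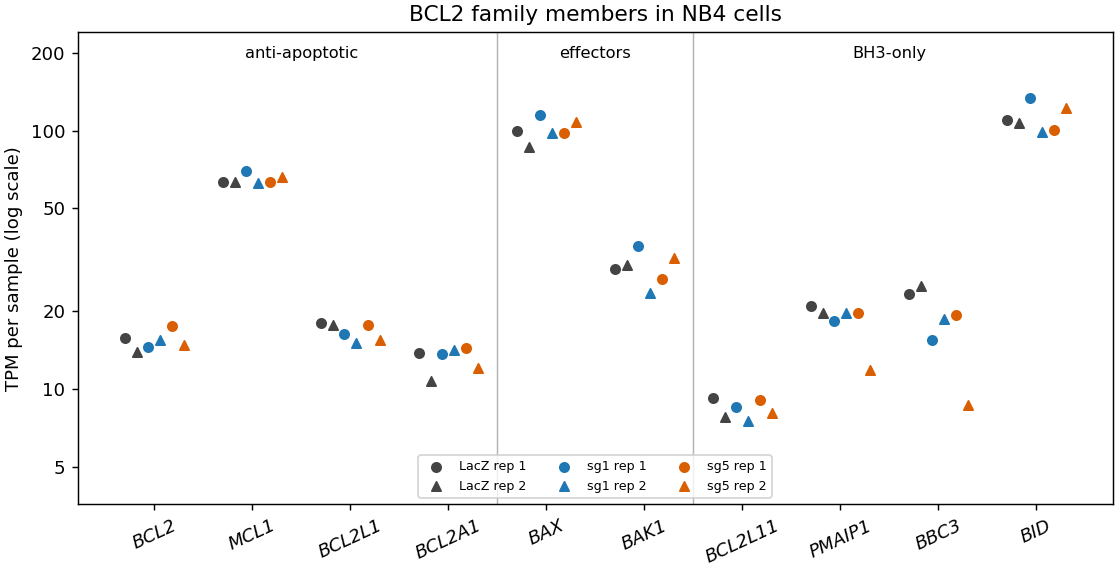
TPM of the 10 members in each of the 6 samples, on a log axis, with circles for replicate 1 and triangles for replicate 2. BID and BAX lie highest, BCL2L11 lowest, and BBC3 in sg5 replicate 2 (8.70 TPM) lies furthest below its LacZ values (23.3 and 25.2 TPM).

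The order of the mean TPM over the 6 samples was BID (111.99), BAX (101), MCL1 (64.9), BAK1 (29.6), BBC3 (18.5), PMAIP1 (18.4), BCL2L1 (16.7), BCL2 (15.4), BCL2A1 (13.2) and BCL2L11 (8.38). Within each of the 6 samples, BID lay above BAX, BAX above MCL1, MCL1 above BAK1, BAK1 above BBC3, BCL2 above BCL2A1 and BCL2A1 above BCL2L11. The neighbours BBC3 and PMAIP1, PMAIP1 and BCL2L1, and BCL2L1 and BCL2 changed places in at least 1 sample. Over samples, the ranges of BID and BAX overlapped, as did those of each neighbouring pair from BAK1 down to BCL2A1. The 2 genes with the highest TPM summed over all transcripts are thus an effector and a BH3-only gene, and MCL1 was the highest anti-apoptotic gene in every sample. Part of the BAX sum came from transcripts annotated as retained introns or as targets of nonsense-mediated decay (BAX-212, 3.54 to 18.5 TPM). The most abundant coding transcript of BAX (BAX-202) lay at 28.6 to 46.8 TPM, below that of MCL1 (MCL1-202) at 51.9 to 61.0 TPM.

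The anti-apoptotic members were examined first. MCL1 (ENSG00000143384, chr1:150574551-150579738 on GRCh38, minus strand) encodes a short-lived survival protein on which many myeloid cells depend. It was measured at 63.4 and 63.5 TPM for LacZ, 69.7 and 62.9 for sg1 and 63.4 and 66.4 for sg5. The samples overlapped in sg1, and on the scale of normalized counts both sg5 samples lay above both LacZ samples. The log2 fold change was 0.12 (SE 0.12) in sg1 and 0.13 (SE 0.12) in sg5, and the 95% confidence interval in sg5 ran from -0.14 to 0.40 by edgeR. These MCL1 values were 0.01 and 0.08 without the 2 libraries that stood apart. MCL1 was thus the member measured most tightly, with 7576 to 9953 counts per sample.

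BCL2 (ENSG00000171791, chr18:63123346-63320128, minus strand), the founding member of the family and the target of venetoclax, lay at 15.8 and 13.9 TPM for LacZ, 14.5 and 15.5 for sg1 and 17.5 and 14.9 for sg5. Groups overlapped in each comparison with LacZ, and sg5 replicate 1 was the highest. Its log2 fold changes were 0.09 (SE 0.14) in sg1 and 0.23 (SE 0.14) in sg5, with FDRs of 0.993 and 0.713 by edgeR. When the 2 libraries that stood apart were left out, each sgRNA kept 1 sample, so that the spread came from the LacZ pair alone and was assumed to hold for the others, and BCL2 in sg5 was then 0.37 higher with an FDR of 0.0364 by edgeR. In that setting 4.07% of all genes passed in sg5, against 0.0972% with all samples, and the call of BCL2 rests on sg5 replicate 1 alone.

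BCL2L1 (ENSG00000171552, chr20:31664452-31723989, minus strand), the gene of BCL-XL, lay at 18.03 and 17.74 TPM for LacZ, 16.3 and 15.1 for sg1 and 17.7 and 15.6 for sg5. It was the only anti-apoptotic member with negative log2 fold changes, at -0.20 (SE 0.13) in sg1 and -0.03 (SE 0.13) in sg5. Both sg1 samples lay below both LacZ samples, and the FDR by edgeR was 0.993. BCL2A1 (ENSG00000140379, chr15:79960889-79971446, minus strand), a target of NF-κB in hematopoietic cells, lay at 13.8 and 10.8 TPM for LacZ, 13.7 and 14.1 for sg1 and 14.5 and 12.1 for sg5. Its LacZ replicates differed more than the groups did, and its log2 fold changes were 0.22 and 0.15 (SE 0.19 in each). BCL2A1 had the fewest counts of the members, at 345 to 466 per sample.

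MCL1 and BCL2L1 are each spliced into a long form that protects cells and a short form that promotes death, so the deposited transcript values were read as shares. The short form of MCL1 (transcript MCL1-201, 271 residues) skips an exon of 248 bases at chr1:150578244-150578491 that the long form (MCL1-202, 350 residues) keeps. The junctions that tell them apart are printed from the transcript sequences of GENCODE 29, 15 bases of exon 1 followed in capitals by the first 15 bases of the next exon.
MCL1-202, long: agacggccttccaagGCATGCTTCGGAAAC
MCL1-201, short: agacggccttccaagGATGGGTTTGTGGAG
The short form held 6.41% and 13.1% of MCL1 TPM for LacZ, 8.75% and 7.63% for sg1 and 3.30% and 4.91% for sg5. Both sg5 samples were below both LacZ samples, but the LacZ pair differed from each other by more than the group means did. The long form held 81.8% to 91.0% of MCL1 TPM over the 6 samples. By estimated counts, which do not correct for length, the short form held 2.75% for LacZ, 2.28% for sg1 and 1.11% for sg5 on average. Reads shared by transcripts were divided by a model, so these shares are estimates and were not tested.

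The long form of BCL2L1 (233 residues) held 30.0% to 43.3% of its TPM, and the short form (170 residues) held 2.98% to 7.21%, with overlapping groups for both. The remaining TPM belonged to other transcripts of the gene, among them coding transcripts of 188 residues. By estimated counts the long form of BCL2L1 held 52.68% to 67.25%, so its share depends on the correction for length. BCL2L11 is also spliced into several forms, of which the extra long form (BIM-EL, 198 residues) held 52.5% to 60.8% of TPM. The 2 coding transcripts of 112 residues together held 15.8% and 20.7% for LacZ, 16.8% and 10.3% for sg1 and 8.69% and 7.74% for sg5. By estimated counts they held 1.13% to 2.95%, and sg5 (1.58% and 1.34%) overlapped LacZ (1.38% and 2.95%).

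The effectors followed a common pattern that did not match the groups. BAX (ENSG00000087088, chr19:48954815-48961798, plus strand), which moves from the cytosol to mitochondria, lay at 99.4 and 86.5 TPM for LacZ, 115 and 97.9 for sg1 and 97.5 and 108 for sg5. BAK1 (ENSG00000030110, chr6:33572547-33580293, minus strand), which resides in the outer membrane, lay at 29.1 and 30.2 TPM for LacZ, 35.9 and 23.5 for sg1 and 26.6 and 32.1 for sg5. For both genes the highest values belonged to sg1 replicate 1 and sg5 replicate 2, the 2 libraries that stood apart. Log2 fold changes were 0.21 and 0.13 for BAX (SE 0.15 in each) and 0.05 and 0.03 for BAK1 (SE 0.20 in each). Without these 2 libraries BAK1 turned to -0.31 in sg1 and -0.14 in sg5, and BAX turned to -0.01 in sg5, and no value passed the threshold (FDRs of 0.340, 0.754 and 0.988 by edgeR).

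BBC3 (ENSG00000105327, chr19:47220822-47232766, minus strand) encodes PUMA, a BH3-only protein that binds all anti-apoptotic members and is induced by stress of the endoplasmic reticulum, among other signals. It lay at 23.3 and 25.2 TPM for LacZ, 15.5 and 18.7 for sg1 and 19.4 and 8.70 for sg5, from 1365 and 1483 counts for LacZ, 961 and 970 for sg1 and 1049 and 543 for sg5. All 4 ARID1A-deficient samples were below both LacZ samples. This held for 1 of 10 members, and no member was higher in this way, while 20.1% of all tested genes did not overlap and 10.4% were lower. Its log2 fold changes were -0.44 (SE 0.30) in sg1, -0.74 (SE 0.30) in sg5 and -0.59 (SE 0.25) in the joined comparison. The 95% confidence interval ran from -1.44 to -0.04 in sg5 and from -1.18 to -0.002 in the joined comparison. FDRs by edgeR were 0.993, 0.664 and 0.690, so none passed. Between sg1 and sg5 the difference was 0.30 (SE 0.30), which did not pass (FDR of 1.00 by edgeR).

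The size of the BBC3 difference depended on single libraries. Without sg5 replicate 2 it was -0.31 in sg5 and -0.38 joined, with FDRs of 1.00 and 0.609 by edgeR, and without sg5 replicate 1 it was -1.35 and -0.89, with FDRs of 0.0251 and 0.0303, where 0.395% and 0.978% of all genes passed. Without both libraries that stood apart it was -0.34 in sg1, -0.31 in sg5 and -0.32 joined, and the joined value passed with an FDR of 0.0942 by edgeR, where 4.19% of all genes passed. With no low-count filter BBC3 passed in sg5 (FDR of 0.00289) and joined (FDR of 0.00584), where 1.92% and 2.13% of all genes passed. DESeq2 gave -0.73 and -0.58 with FDRs of 0.373 and 0.456. BBC3 shares 80 exonic bases with MIR3190 on the other strand, which had 0 counts. The transcript BBC3-203 held 61.9% to 76.5% of its TPM.

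PMAIP1 (ENSG00000141682, chr18:59899948-59904306, plus strand) encodes NOXA, which binds MCL1 and BCL2A1 and promotes the loss of MCL1 protein. It lay at 21.0 and 19.7 TPM for LacZ, 18.4 and 19.8 for sg1 and 19.7 and 11.9 for sg5. A single sample, sg5 replicate 2, stood below the rest, which it also did for BBC3. Its log2 fold changes were -0.06 (SE 0.18) in sg1 and -0.32 (SE 0.18) in sg5, with FDRs of 0.993 and 0.706 by edgeR. Without sg5 replicate 2 the sg5 value was -0.07, and without sg5 replicate 1 it was -0.60.

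BID (ENSG00000015475, chr22:17734138-17774770, minus strand), which is cleaved by caspase-8 and links death receptors to mitochondria, lay at 110 and 107 TPM for LacZ, 134 and 99.0 for sg1 and 100.3 and 122 for sg5. It shared the pattern of the effectors, with its highest values in the 2 libraries that stood apart. Its log2 fold changes were 0.13 and 0.09 (SE 0.16 in each), which turned to -0.11 and -0.06 without these libraries. BCL2L11 (ENSG00000153094, chr2:111119378-111168447, plus strand), the gene of BIM and a target of FOXO3, lay at 9.22 and 7.84 TPM for LacZ, 8.53 and 7.55 for sg1 and 9.09 and 8.06 for sg5. These TPM values overlapped throughout, whereas on the scale of normalized counts both sg5 samples (22.2 and 21.4 CPM) lay above LacZ (20.9 and 18.3). The log2 fold changes were 0.03 and 0.15 (SE 0.13 in each).

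**Figure D2:**
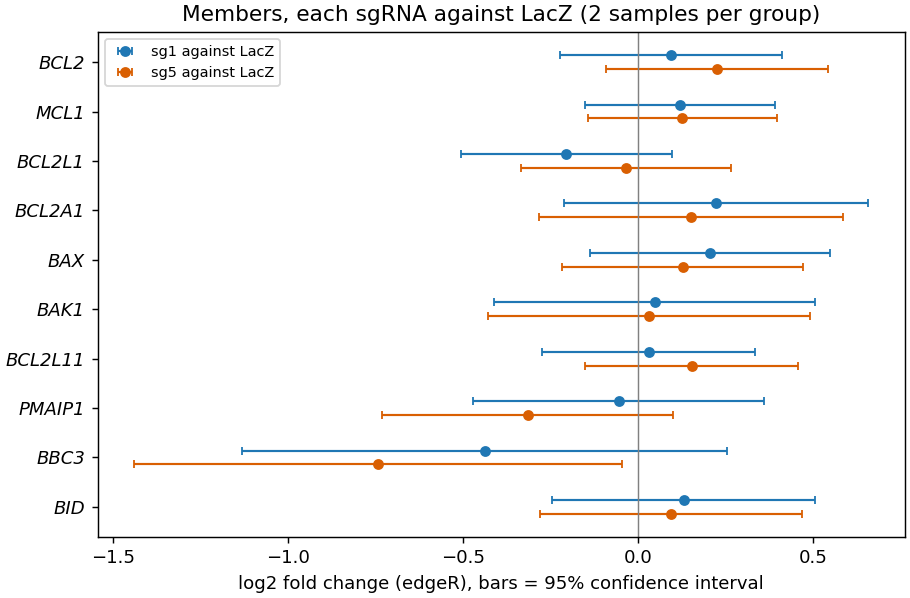
Log2 fold change of each member in sg1 (blue) and sg5 (orange) against the same LacZ samples, with 95% confidence intervals from edgeR and 2 samples per group. The interval of BBC3 in sg5 (-1.44 to -0.04) is the only one that leaves out 0, and no member passed an FDR of 0.1.

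These intervals limit what could be seen. For the 9 members other than BBC3, the joined intervals reached from -0.54 (PMAIP1) at the lowest to 0.57 (BCL2A1) at the highest on the log2 scale. The median log2 fold change of the members was 0.07 in sg1, 0.11 in sg5 and 0.10 joined, beside medians over all tested genes of 0.002, -0.01 and -0.007. In each of these comparisons 7 members had a positive and 3 a negative value, and the negative ones were BCL2L1, PMAIP1 and BBC3 throughout (without LacZ replicate 1, BCL2L1 in sg5 and PMAIP1 in sg1 turned positive), while 50.3%, 48.6% and 48.7% of all genes had positive values. Without the 2 libraries that stood apart the medians of the members were -0.01, -0.02 and -0.02, and 5, 4 and 5 members were positive, beside 50.9%, 48.8% and 49.3% of all genes. The comparisons share the LacZ samples. On the scale of normalized counts, members with no overlap between the groups numbered 3 in sg1 (BCL2A1 higher, BCL2L1 and BBC3 lower), against 34.2% of all genes, and 3 in sg5 (MCL1 and BCL2L11 higher, BBC3 lower), against 42.2%. Between sg1 and sg5 they numbered 2 (BCL2L1 and BCL2L11, both lower in sg1), against 21.8%.

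Within the ARID1A-deficient samples, members varied in opposite directions. Relative to the LacZ mean on the scale of log2 CPM (normalized counts per library size), sg1 replicate 1 and sg5 replicate 2 were at 0.37 and 0.26 for BAX, 0.33 and 0.18 for BAK1 and 0.34 and 0.23 for BID, but at -0.54 and -1.36 for BBC3. The other 2 ARID1A-deficient samples, sg1 replicate 2 and sg5 replicate 1, were at 0.02 and -0.01 for BAX, -0.31 and -0.14 for BAK1, -0.11 and -0.06 for BID, and -0.34 and -0.30 for BBC3. BBC3 thus lay below the LacZ mean in all 4 samples, as BCL2L1 did (-0.24 to -0.02) and PMAIP1 (-0.62 to -0.04). Above it in all 4 samples lay BCL2 (0.07 to 0.37), MCL1 (0.01 to 0.22), BCL2A1 (0.05 to 0.27) and BCL2L11 (0.015 to 0.18). The share of all genes that lay on the same side in all 4 was not counted.

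**Figure D3:**
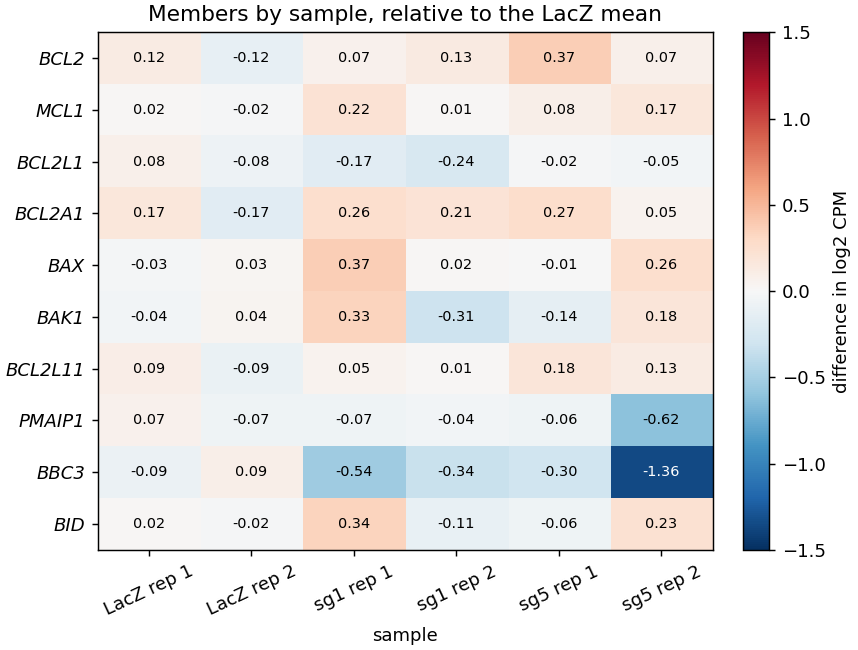
Difference of each member from its LacZ mean in each sample, on the log2 CPM scale, with red for higher and blue for lower. BAX, BAK1 and BID are highest in sg1 replicate 1 and sg5 replicate 2, and BBC3 is below LacZ in all 4 ARID1A-deficient samples, from -1.36 to -0.30.

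Likeness between genes was described by Pearson's r of log2 CPM over the 6 samples, which share the division into 2 and 4 libraries described above, and with so few samples r has no test here. The nearest member of BAX was BID (0.945), that of BAK1 was BID (0.942), and that of BBC3 was PMAIP1 (0.910). BCL2 and BCL2L11 were nearest to each other (0.846), MCL1 was nearest to BAX (0.898), BCL2A1 to BCL2 (0.791) and BCL2L1 to BCL2L11 (0.425). Among 68 other genes of the pathway, TNFRSF10B, a death receptor for TRAIL, was nearest to BBC3 (0.984), and SESN2, a sestrin induced by ATF4, was nearest to PMAIP1 (0.954). BIRC5 was nearest to MCL1 (0.973) and BID (0.944), BAD to BAX (0.959) and BAK1 (0.941), RIPK1 to BCL2 (0.881), BCL2A1 (0.883) and BCL2L11 (0.915), and BCL2L10 to BCL2L1 (0.728).

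Because BBC3 and PMAIP1 were low in the same library, the sequences before their start sites are shown from RefSeq (GRCh38.p14), 5′ to 3′ on the strand of each gene. The run of BBC3 is chr19:47232767-47232917, minus strand, and that of PMAIP1 is chr18:59899746-59899947, plus strand. Each ends where the first annotated transcript of GENCODE 29 begins, 99 and 48 bases before the RefSeq start. Capitals mark matches of 5 motifs of stress-responsive factors, chosen after the values had been seen and searched on both strands of the 250 bases before the RefSeq start. No p53 element was among these motifs.
BBC3: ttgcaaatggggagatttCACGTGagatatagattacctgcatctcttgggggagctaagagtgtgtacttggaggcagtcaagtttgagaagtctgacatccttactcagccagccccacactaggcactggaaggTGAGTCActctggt
PMAIP1: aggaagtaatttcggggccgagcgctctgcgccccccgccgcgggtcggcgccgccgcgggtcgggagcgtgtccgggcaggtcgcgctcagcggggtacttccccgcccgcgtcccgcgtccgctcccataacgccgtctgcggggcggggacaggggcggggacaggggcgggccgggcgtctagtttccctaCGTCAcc
BBC3 held the E-box CACGTG 232 to 227 bases before the RefSeq start, a motif found in 6.35% of 35114 promoters of the same length. It also held the AP-1 motif TGAGTCA at 113 to 107 bases, found in 4.2% of promoters. PMAIP1 held the CRE half-site TGACG on the other strand (CGTCA) at 55 to 51 bases, found in 21.2%. The full CRE TGACGTCA (1.65% of promoters), which contains the half-site, and the C/EBP-ATF element TGATGNAA (3.14%) had no match in either window. The most abundant transcript of PMAIP1 starts where the printed run ends, but that of BBC3 starts 1473 bases downstream of the RefSeq start, so the BBC3 run is not adjacent to it.

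The balance of the family was then summed. Anti-apoptotic members summed to 111 and 106 TPM for LacZ, 114 and 108 for sg1 and 113 and 109 for sg5, of which MCL1 made up 56.0% to 61.0%. Pro-apoptotic members summed to 292 and 277 TPM for LacZ, 327 and 266 for sg1 and 273 and 291 for sg5, of which BID and BAX together made up 70.0% to 79.1%. These sums take in all transcripts, also those of BAX that are annotated as retained introns or targets of nonsense-mediated decay. The ratio of the sums was 0.381 and 0.383 for LacZ, 0.349 and 0.404 for sg1 and 0.415 and 0.375 for sg5. Both LacZ samples lay between the lower and the higher replicate of each sgRNA. On the log2 scale the ratio differed from LacZ by -0.02 in sg1, by 0.05 in sg5 and by 0.01 joined, beside a pooled within-group SD of 0.105. The differences were smaller than this pooled spread, which came from the sgRNA groups (SD of 0.0056 in LacZ, 0.149 in sg1 and 0.105 in sg5). Leaving out the 2 libraries that stood apart gave differences of 0.08, 0.12 and 0.10. As the members were chosen by name with results known, no p-value was attached.

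**Figure D4:**
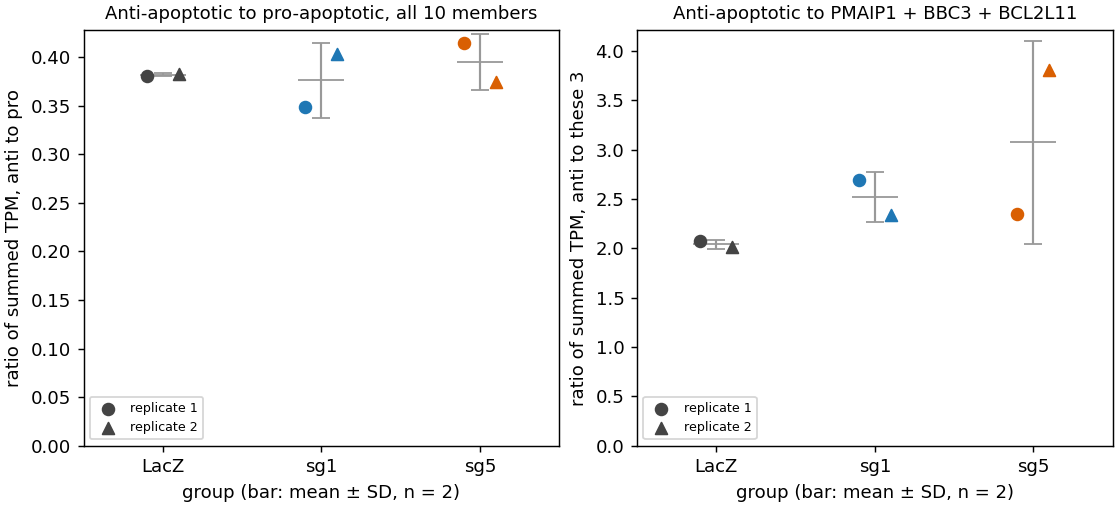
Ratio of summed TPM in each sample, with the mean and SD of 2 replicates in grey. The ratio over all 10 members (left) lies between 0.349 and 0.415 with overlapping groups, and the ratio of anti-apoptotic members to BCL2L11, PMAIP1 and BBC3 (right) lies at 2.01 and 2.08 in LacZ and between 2.34 and 3.80 in the ARID1A-deficient samples.

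The summed ratio follows its most abundant genes, so other weightings were set beside it. In the first, members counted equally within each side, as the mean log2 TPM of the anti-apoptotic members minus that of the pro-apoptotic members. This balance was -0.58 and -0.66 for LacZ, -0.61 and -0.46 for sg1 and -0.43 and -0.36 for sg5. Both sg5 samples lay above LacZ, while sg1 overlapped it. The differences from LacZ were 0.09 in sg1, 0.23 in sg5 and 0.16 joined, beside a within-group SD of 0.0735, and they were 0.16, 0.19 and 0.18 without the 2 libraries that stood apart. In this weighting BBC3 counts as much as BID. Apart from BID, which must be cleaved to act, the BH3-only members (BCL2L11, PMAIP1 and BBC3) summed to 53.5 and 52.7 TPM for LacZ, 42.4 and 46.0 for sg1 and 48.3 and 28.6 for sg5. The ratio of the anti-apoptotic sum to these 3 was 2.08 and 2.01 for LacZ, 2.70 and 2.34 for sg1 and 2.34 and 3.80 for sg5. All 4 ARID1A-deficient samples were above both LacZ samples. This choice of genes holds BBC3, which fixes much of that direction, so it is no separate evidence.

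Single pairs of binding partners were compared next. The ratio of MCL1 to BBC3 in TPM was 2.72 and 2.52 for LacZ, 4.4997 and 3.36 for sg1 and 3.26 and 7.63 for sg5. The ratio of MCL1 to PMAIP1, its selective partner, was 3.02 and 3.22 for LacZ, 3.80 and 3.18 for sg1 and 3.21 and 5.60 for sg5, with overlap. The ratio of BCL2 to BAX was 0.159 and 0.161 for LacZ, 0.126 and 0.158 for sg1 and 0.180 and 0.138 for sg5, and sg1 replicate 1 was the lowest. Only the first of these 3 ratios separated all ARID1A-deficient samples from LacZ, and it contains BBC3.

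Other genes of the pathway were taken from 11 lists of 70 genes, of which 68 passed the filter. None of the 68 passed an FDR of 0.1 by edgeR in any of the 4 comparisons (sg1, sg5, joined and sg1 against sg5). At an unadjusted p under 0.05 by edgeR there were 1, 5, 6 and 1, beside 4.15%, 7.47%, 7.21% and 1.38% of all genes. DESeq2 called 0, 1, 1 and 0 of the 68, and the 1 gene was DDIT3. Of the 68, 37 had positive values in sg1, 36 in sg5 and 36 joined, beside 50.3%, 48.6% and 48.7% of all genes. On the scale of normalized counts, 18 did not overlap with LacZ joined (9 lower and 9 higher), beside 20.1% of all genes. Members of the same family came first. Among other anti-apoptotic genes, BCL2L2 (BCL-w) had 15.02 ± 0.39 TPM for LacZ, 14.2 ± 3.09 for sg1 and 12.7 ± 1.40 for sg5 (SD, n = 2). BCL2L2 was at 12.0 and 11.7 TPM in the 2 libraries that stood apart and at 16.4 and 13.7 in the other ARID1A-deficient samples. Without these libraries its joined log2 fold change turned positive. BCL2L10 had 9.52 ± 0.26, 6.35 ± 0.008 and 7.05 ± 1.22 TPM. BCL2L10 was below LacZ in all 4 ARID1A-deficient samples, at -0.50 in sg1 and -0.42 joined (FDRs of 0.993 and 0.652 by edgeR). The effector BOK was near 0, at 0.07 to 0.09 TPM on average in each group.

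The other BH3-only genes did not move one way. BAD, which is held inactive by survival kinases, lay at 39.1 ± 2.23 TPM for LacZ, 42.8 ± 10.8 for sg1 and 39.2 ± 6.44 for sg5 (SD, n = 2). BMF lay at 12.8 ± 0.11, 12.4 ± 3.03 and 10.4 ± 5.97 TPM, and was lowest in sg5 replicate 2 (6.15 TPM), as BBC3 was, and without the 2 libraries its joined log2 fold change was 0.06. BIK, picked out after its values were seen, was 0.54 higher in the joined comparison (FDR of 0.683 by edgeR), with 8.82 and 6.69 TPM for LacZ, 13.7 and 8.69 for sg1 and 11.0 and 10.2 for sg5. Among family genes of less settled role, BCL2L12 (71.6 ± 2.34 TPM in LacZ) and BCL2L13 (35.6 ± 1.34) had joined log2 fold changes of 0.09 and -0.13. Without the 2 libraries all 3 tested genes of this list were negative (median of -0.06), so that BCL2L12 changed sign. BCL2L13 had 61.0 and 60.6 CPM in these libraries, 71.4 and 70.4 in the other ARID1A-deficient samples, and 68.9 and 74.8 in LacZ.

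The lists of mitochondrial release, caspases and their inhibitors held no gene that passed the test with all samples, and their medians were smaller without the 2 libraries that stood apart. In the apoptosome and mitochondrial release list, 8 of 9 genes were positive in the joined comparison with a median of 0.14, beside 48.7% of all genes, and without these libraries 6 were positive with a median of 0.03. VDAC2, the outer membrane channel that recruits BAK1, lay at 349 ± 27.9 TPM for LacZ, 363 ± 18.3 for sg1 and 394 ± 17.4 for sg5, and VDAC1 at 266 ± 7.63, 282 ± 25.6 and 299 ± 29.6 (SD, n = 2). Without these libraries the joined values of VDAC1 and VDAC2 were 0.002 and 0.07. Of the caspases, 5 of 7 were positive with a median of 0.16, and 6 with a median of 0.06 without the 2 libraries. CASP8, the protease that cleaves BID, had 28.9 ± 0.11, 29.6 ± 1.18 and 30.6 ± 3.77 TPM, and CASP2 had 26.7 ± 3.89, 28.2 ± 1.70 and 29.4 ± 1.12. Of the inhibitors of apoptosis, 4 of 6 were positive with a median of 0.15, which was 0.04 without the 2 libraries. BIRC5, the survivin gene, which peaks in mitosis, had 55.0 ± 1.88, 63.0 ± 11.8 and 66.4 ± 3.64 TPM, and BIRC6 had 19.1 ± 1.09, 20.2 ± 2.35 and 18.2 ± 2.60. The joined value of BIRC5 was 0.04 without the 2 libraries. The median over all genes was -0.007.

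**Figure D5:**
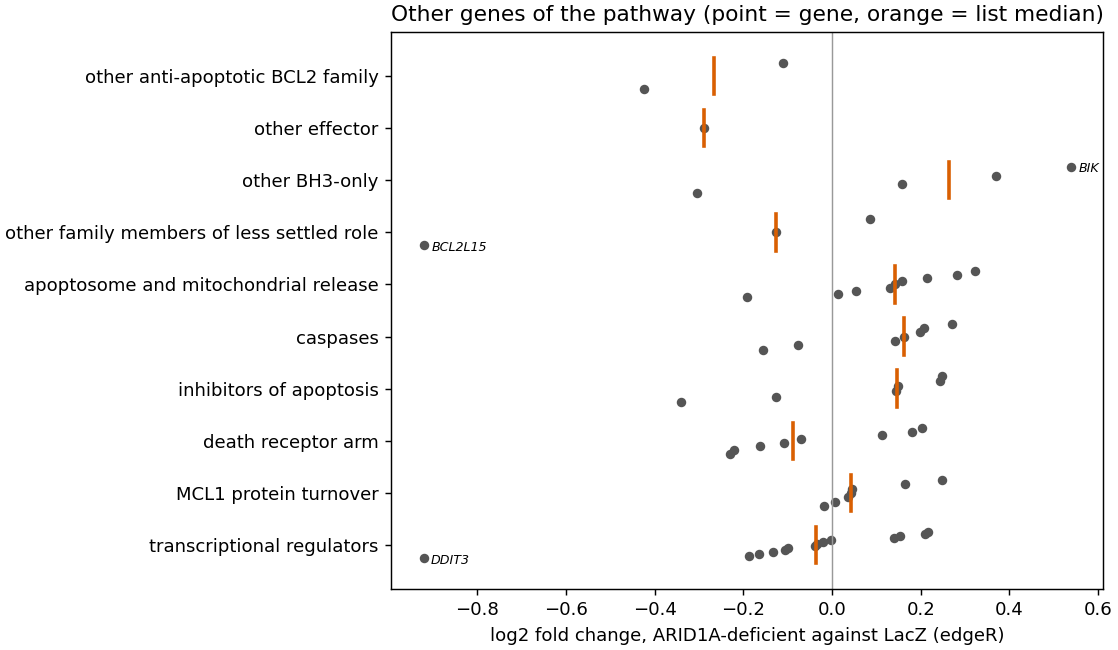
Joined log2 fold change (ARID1A-deficient against LacZ, edgeR) of the tested genes of 10 of the 11 other lists, with 1 point per gene and the list median in orange. The list of the p53 response, with SESN2 at -0.73 and GADD45A at -0.67, is not drawn. No gene passed an FDR of 0.1, and DDIT3 and BCL2L15 have the lowest values, both at -0.92.

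The death receptor arm had 3 positive and 5 negative genes in the joined comparison, with a median of -0.09. Over all genes 48.7% were positive. TNFRSF1A, the main receptor of TNF, lay at 133 ± 7.59 TPM for LacZ, 131 ± 1.38 for sg1 and 120 ± 2.65 for sg5, and CFLAR, which blocks caspase-8, at 57.0 ± 2.13, 55.7 ± 2.72 and 55.5 ± 2.13 (SD, n = 2). For CFLAR the scale of counts had the opposite direction, with 75.0 and 74.3 CPM for LacZ, 85.7 and 81.0 for sg1 and 88.0 and 83.4 for sg5, and a joined log2 fold change of 0.18 (FDR of 0.742 by edgeR). TNFRSF10B lay at 40.7 and 43.6 TPM for LacZ, 36.8 and 39.2 for sg1 and 39.6 and 33.2 for sg5, so that all 4 ARID1A-deficient samples were below LacZ. Genes of MCL1 protein turnover had a median of 0.04, with CDC20 at 113 ± 1.93, 128 ± 36.2 and 128 ± 44.4 TPM and GSK3A at 49.8 ± 1.92, 51.8 ± 2.98 and 49.6 ± 10.4. The median was -0.02 when the 2 libraries that stood apart were left out.

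Among transcriptional regulators, 4 of 14 genes were positive and 10 negative in the joined comparison, with a median of -0.04. Of all genes, 48.7% were positive. ATF4, the factor of the integrated stress response, lay at 727 and 655 TPM for LacZ, 612 and 691 for sg1 and 784 and 434 for sg5, and MYC at 546 ± 44.6 TPM for LacZ, 479 ± 77.5 for sg1 and 459 ± 2.51 for sg5 (SD, n = 2). DDIT3 (CHOP), a stress factor that can induce BBC3, was picked out after its values were seen. It lay at 51.59 and 49.97 TPM for LacZ, 26.7 and 33.0 for sg1 and 32.0 and 13.5 for sg5, with all 4 ARID1A-deficient samples below LacZ. Its log2 fold changes were -0.72 (SE 0.33) in sg1, -1.12 (SE 0.34) in sg5 and -0.92 (SE 0.28) joined, with FDRs of 0.993, 0.563 and 0.497 by edgeR. DESeq2 gave -1.11 in sg5 and -0.91 joined with FDRs of 0.0356 and 0.0441, where 1.15% and 1.46% of all genes with an adjusted p passed. Without the 2 libraries that stood apart the values were -0.59, -0.65 and -0.62, and all passed (FDRs of 0.00390, 0.000602 and 9.47e-06 by edgeR), where 2.2%, 4.07% and 4.19% of all genes passed.

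SESN2 lay at 28.1 and 31.5 TPM for LacZ, 18.3 and 25.8 for sg1 and 22.8 and 5.81 for sg5, and its log2 fold changes were -0.41 (SE 0.65) and -1.04 (SE 0.66). In sg5 the SESN2 value was -0.38 without the 2 libraries that stood apart and -2.28 without sg5 replicate 1, and both passed (FDRs of 0.0359 and 0.00430 by edgeR), while it was -0.39 without sg5 replicate 2 (FDR of 1.00). SESN1, another sestrin, had values of 0.34 and 0.40, the opposite sign, and of 0.12 and 0.37 without the 2 libraries. GADD45A, picked out after its values were seen, had values of -0.77 in sg5 and -0.67 joined (FDRs of 0.636 and 0.581 by edgeR), which were -0.45 and -0.48 without the 2 libraries. SESN2, SESN1 and GADD45A were taken from the list of the p53 response. In that list 2 tested genes were positive and 5 negative in the joined comparison, with a median of -0.04, while 48.7% of all genes were positive. BBC3, DDIT3, SESN2, TNFRSF10B, BMF, PMAIP1 and ATF4 each had their lowest value in sg5 replicate 2, a library that stood apart. These genes were put together for that trait after values had been seen. The share of all genes that were lowest in that sample was not counted, and a common cause was not tested.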

How the data were processed

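RNA-sequencing of 6 NB4 samples was deposited as per-transcript tables of estimated counts and TPM. The authors made both with kallisto, where reads shared by transcripts are split by a model and TPM is scaled by effective length. The processing notes name kallisto, DESeq2 and hg19. The human transcript set and version are not given in the sources used here, nor is strand-specific counting. Of 196354 transcripts, 181857 (92.6%) matched GENCODE 29 (GRCh38) by identifier and carried 95.44% to 95.53% of counts. These were summed to genes, with counts rounded, and coordinates come from that match.

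Tests used edgeR 4.0.16 (R 4.3.3) with TMM factors, filterByExpr (minimum count 10), a robust quasi-likelihood F-test, 1 model of 3 groups and Benjamini-Hochberg adjustment over 18514 genes at an FDR of 0.1. Log2 CPM used a prior count of 2. Alternatives included DESeq2 (version 1.42.0 here; the study also used this tool), other filters and normalization, a length offset, the replicate number as a block and each sample left out. Balance and isoform shares were described without a test, with a pseudocount of 0.1 for log2 TPM. The fitting functions were tested on simulated data.

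Members and lists were chosen with earlier results of these data known. All members were named, with ARID1A, every list gene called, the 2 genes of highest mean TPM in each list, and for each member the member and list gene with the highest r. Other list genes were picked after their values were seen. Replicate numbers come from the sample titles and were shared between the groups. Whether they pair the samples is not stated, and the samples were treated as unpaired in the main test. Some results of the lists are not reported here.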

Additional observations from a re-analysis of the deposited data

How the results depend on the processing

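Each member had at least 345 counts in every sample, and each group had 2 replicates. Values of the pathway lists, and of the balance weighted equally within each side, without the 2 libraries that stand apart were added after seeing the data. Same-numbered samples deviated from their group means with r of 0.072 (LacZ and sg1), 0.012 (LacZ and sg5) and -0.206 (sg1 and sg5) over 18514 genes. The 2 libraries that stand apart carry different replicate numbers, which can lower r, so r cannot decide whether the numbers pair the samples. With the replicate block 0 members were called, and BBC3 was at -0.44, -0.78 and -0.61 in sg1, in sg5 and joined. The block gave 1, 1, 3 and 0 genes in all, in place of 7, 18, 31 and 1. Leaving out samples leaves a group with 1 sample, which is then assumed to vary like the rest. Where no cause follows from the setting itself, the cause was not tested.

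Members called numbered 1 in sg5 (BBC3) and 1 joined (BBC3) with no low-count filter, and 1 in sg5 (BCL2) and 1 joined (BBC3) without the 2 libraries that stand apart. With 1 sample left out they numbered 0 to 1 in sg5 and joined, the 1 being BBC3 without sg5 replicate 1. DESeq2 called 1 list gene in sg5 and 1 joined, where 1.15% and 1.46% of all genes with an adjusted p passed. Once the low-count filter was dropped, 345, 632, 701 and 86 of 32983 genes passed in sg1, sg5, joined and sg1 against sg5. The list genes among these numbered 1, 3, 3 and 1. Without the 2 libraries they numbered 1, 2 and 3 in sg1, sg5 and joined, and with 1 sample left out 0 to 2 in sg5 and joined and 0 to 1 between the sgRNAs. Over these settings the list genes were DDIT3, SESN2, GADD45A and NAIP. Shares of all genes that passed without the 2 libraries are given with DDIT3 above.

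The log2 balance changed to 0.0904, 0.23 and 0.16 in sg1, sg5 and joined when members were weighted equally within each side. With a pseudocount of 1 in that weighting it was 0.0836, 0.22 and 0.15. The log2 ratio of sums was 0.16 in sg5 with CPM in place of TPM and 0.0805 in sg1 without the 2 libraries. With 1 sample left out it ran from -0.13 to 0.0805 in sg1 and from -0.18 to 0.034 between the sgRNAs. By estimated counts in place of TPM, which removes the correction for length, the MCL1 short form held 2.75%, 2.28% and 1.11%, the BCL2L1 long form 62.3%, 57.2% and 62.9%, and the BCL2L11 extra long form 91.4%, 90.9% and 91.2% in LacZ, sg1 and sg5.

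Values near 0 turned their sign. With the length offset BCL2L11 in sg1 was -0.046 and MCL1 between the sgRNAs 0.018. With the replicate block and length offset these were -0.046 and 0.017, and BAK1 between the sgRNAs was -0.0055. With protein-coding transcripts only, MCL1 between the sgRNAs was 0.0028. Without the 2 libraries BAK1 was -0.31, -0.14, -0.22 and -0.17 in sg1, in sg5, joined and between the sgRNAs, BID was -0.11, -0.062, -0.087 and -0.051, BAX in sg5 was -0.012, and between the sgRNAs BCL2A1 was -0.0595 and BBC3 -0.034. With 1 sample left out, BAK1 ran from -0.31 to 0.34 in sg1, from -0.14 to 0.20 in sg5, from -0.13 to 0.19 joined and from -0.36 to 0.29 between the sgRNAs. BID ran from -0.12 to 0.35 in sg1, from -0.068 to 0.25 in sg5, from -0.0067 to 0.23 joined and from -0.22 to 0.24 between the sgRNAs. BAX ran from -0.019 to 0.27 in sg5 and from -0.13 to 0.24 between the sgRNAs. In sg1 BCL2 ran from -0.022 to 0.22, BCL2L11 from -0.062 to 0.13 and PMAIP1 from -0.12 to 0.014. In sg5 BCL2A1 ran from -0.0048 to 0.34 and BCL2L1 from -0.10 to 0.057. Between the sgRNAs BCL2 ran from -0.27 to 0.0078, BCL2A1 from -0.032 to 0.17, MCL1 from -0.13 to 0.0896 and BBC3 from -0.13 to 0.91.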

Other observations

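A further set of 10 genes activated by ATF4, chosen after values had been seen and therefore not tested, was examined because DDIT3 and SESN2 were low in the same samples as BBC3. ASNS, the asparagine synthetase, lay at 222 and 201 TPM for LacZ, 59.3 and 216 for sg1 and 242 and 33.1 for sg5. PSAT1 and PHGDH, enzymes of serine synthesis, lay at 216 and 233 TPM and at 360 and 333 TPM in LacZ, at 103 and 232 and at 157 and 334 in sg1, and at 229 and 67.1 and at 380 and 122 in sg5. In each of these 3 genes, sg1 replicate 1 and sg5 replicate 2 were far below the other 4 samples, which lay close together. TRIB3, a pseudokinase induced by DDIT3, lay at 228 and 293 TPM for LacZ, 107 and 202 for sg1 and 172 and 69.8 for sg5. It was below LacZ in all 4 ARID1A-deficient samples, as were BBC3, DDIT3 and 10.4% of all tested genes. The joined log2 fold changes were -0.57 for ASNS, -0.48 for PSAT1, -0.45 for PHGDH and -0.91 for TRIB3, and without sg1 replicate 1 and sg5 replicate 2 they were 0.18, 0.06, 0.06 and -0.47. Of the 10 genes, 10 had negative joined values with all samples and 5 without these libraries. Positive joined values were held by 48.7% of all genes with all samples and by 49.3% without these libraries. The part of the 10 genes in the values of BBC3 and PMAIP1 was not tested.

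The 10 members and the balance were also screened for 1 ARID1A-deficient sample lying far outside the other 3, and 0 of these 11 values passed the limit. PMAIP1 came nearest, where sg5 replicate 2 lay 0.822 of the whole range below the next sample. The screen looks for a single sample, so it cannot find the 2 libraries that stood apart where both deviate the same way, as for BAX, BAK1 and BID.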
